A study of Homo sapiens and synthetic construct with 14 samples.

Results

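The genome-wide library of this study held 4334 windows that its makers took from REST binding sites and filed as having no RE1 motif, out of 23789 elements in all. They were chosen here by that project label, after windows that the study's noncanonical library lists as wild-type noncanonical sites had been set aside (86 windows). Each window is 200 bp long and was joined in turn to 5 enhancers (En02, En09, En11, En19 and En21), which gave 21308 constructs. Where the 4 plasmid libraries averaged 20 counts or more, 20485 constructs were measured, and 3874 windows were measured beside all 5 enhancers.

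REST, also called NRSF, is a zinc finger protein that binds the RE1 sequence and recruits corepressors, histone deacetylases among them, through which it keeps neuronal genes low in cells that are not neurons. An RE1 is made of a left and a right part that are held at a fixed spacing in the canonical form and at other spacings in noncanonical forms. Chromatin immunoprecipitation also recovers REST at places where neither form is found, for instance at open promoters and enhancers. The subject here is windows filed as having no RE1 motif, less the listed noncanonical ones. Whether they lie at promoters or enhancers was not examined.

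The assay, MPRAduo, is a massively parallel reporter assay in which each plasmid carries an enhancer, a test element in the silencer position and a barcode that names the pair. The output is messenger RNA of a GFP reporter, recovered 24 hours after electroporation. The library was read in GM12878 (a lymphoblastoid B-cell line), HepG2 (liver cancer), K562 (chronic myeloid leukaemia) and SK-N-SH (neuroblastoma), with 4 biological replicates of RNA per line and 4 libraries of the shared plasmid pool. No cell line carried a treatment or an engineered allele in the labels, and a plasmid is read outside the window's own chromatin.

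Where 4 values stand in a row without names, they follow that order of lines. RNA libraries held 50184575 to 94912250 counts and plasmid libraries 35194052 to 54483871. The windows took 16.8% to 16.9% of plasmid counts and 16.2% to 19.3% of RNA counts, with a median of 38 barcodes and a median plasmid mean of 257 counts per construct. Over the 3874 windows, RNA libraries of the same line correlated at 0.75 to 0.81 in GM12878, at 0.90 to 0.95 in HepG2 and at 0.97 to 0.98 for K562 or SK-N-SH (Pearson's r across windows, a description), so single windows were read least precisely in GM12878. Just outside the minimum, 73 constructs with plasmid means from 18 up to 20 had median log2 activities of 0.10, −0.02, −0.57 and −0.21 in the 4 lines, and just inside it 74 constructs from 20 up to 22 had −0.04, −0.04, −0.77 and −0.32.

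Positions are printed as the element names give them. The sources used here do not name their genome build, and it is not GRCh38: of 3710 single-base reference alleles written in the names, 917 (24.7%) matched the GRCh38 base at that position. The windows' letters, and so the label's claim that they hold no RE1, were not checked, and no gene annotation was joined.

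Activity is given as log2 of RNA over plasmid, relative to the summed counts of the random elements (780 measured) beside the same enhancer, and for a window as the mean over its 5 enhancers. A sum gives most weight to the most active random elements, so on this scale the median random element lay below 0, at −0.52, −0.79, −0.997 and −0.75 for the 4 lines (721 elements measured beside all 5 enhancers). The windows without a motif had medians of −0.36, −0.37, −0.76 and −0.55 in the same order. Windows with an RE1 motif (7511) had medians of −0.62, −0.88, −1.03 and −0.996. The noncanonical windows (77) lay lowest, at −1.01, −1.88, −1.95 and −2.06.

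**Figure D1:**
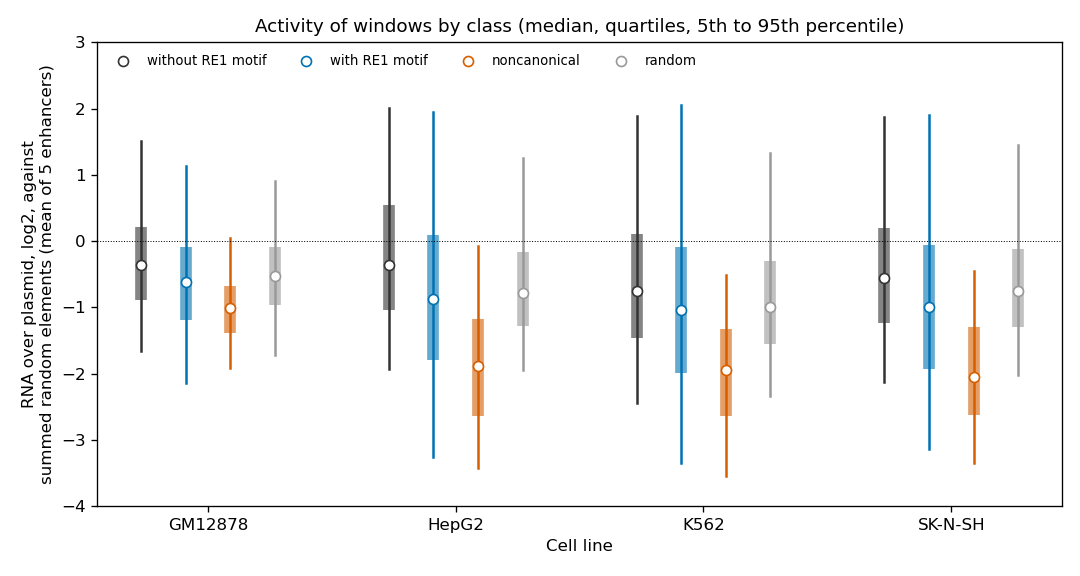
Activity of windows in each cell line (horizontal axis) as log2 RNA over plasmid against summed random elements (vertical axis), for windows without an RE1 motif, with an RE1 motif, noncanonical windows and random elements. Circles are medians, thick bars the quartiles and thin bars the 5th to 95th percentiles over elements; the median without a motif (−0.36, −0.37, −0.76 and −0.55) is the highest of the 4 classes in every line.

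Over the mean of the 5 enhancers, the windows without an RE1 motif were as a class more active than random elements, windows with a motif and noncanonical windows in all 4 lines. The difference of the class medians was taken within each library, so no scaling of libraries enters it, and RNA libraries were compared with plasmid libraries. These medians are of log2 counts, and the folds below come from them. They need not equal the differences between the median activities given above. Against random elements it was 0.19, 0.25, 0.21 and 0.16 in the 4 GM12878 RNA libraries, a mean of 0.20 ± 0.04 (SD, n = 4) or 1.15-fold. In HepG2 it was 0.37, 0.47, 0.35 and 0.45, a mean of 0.41 ± 0.06 or 1.33-fold. In K562 it was 0.26, 0.17, 0.16 and 0.15, a mean of 0.18 ± 0.05 or 1.14-fold. In SK-N-SH it was 0.15, 0.16, 0.12 and 0.16, a mean of 0.15 ± 0.02 or 1.11-fold. Each value is relative to the plasmid libraries, which spread by 0.01 (SD, n = 4), and no RNA library overlapped them. The two-sided exact permutation test gave p = 0.0286 in each line (adjusted over the 4 lines 0.0286), the smallest that 4 against 4 libraries allow. This p covers the spread among libraries of the same elements, and does not cover which elements were drawn for a class. An alternative chosen after seeing the data took each window's RNA over its own plasmid. It gave differences from random elements of 0.16, 0.40, 0.24 and 0.18 in the 4 lines.

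Against windows with an RE1 motif the difference was 0.27 ± 0.01, 0.54 ± 0.03, 0.26 ± 0.03 and 0.40 ± 0.01 (SD, n = 4 RNA libraries each; exact permutation p = 0.0286 in each). By enhancer, the difference from windows with a motif was 0.36, 0.91, 0.56 and 0.84 beside En02 but 0.11, 0.08, −0.085 and −0.015 beside En21, where all 4 K562 libraries were below 0. Beside En09 it was 0.19, 0.10, 0.025 and 0.06. Over the mean of the 5 enhancers, the difference from the noncanonical windows was 0.98 ± 0.07, 1.79 ± 0.12, 1.28 ± 0.06 and 1.72 ± 0.06 (SD; exact permutation p = 0.0286 in each). The median activities of these 2 classes lay closer together, at −0.36, −0.37, −0.76 and −0.55 against −1.01, −1.88, −1.95 and −2.06. For this pair, and for windows with a motif, the difference from each window's own plasmid was not taken. The noncanonical windows carry the same project label as the windows described here, and the 2 subsets of that label were far apart. How the study chose the sites of its noncanonical library was not examined here. If activity in the present library entered that choice, the gap and its p would follow from it.

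Between cell lines, the class difference from random elements was highest in HepG2. Each HepG2 library lay above every library of the other lines, by 0.21 over GM12878, 0.22 over K562 and 0.26 over SK-N-SH on average (exact permutation p = 0.0286 each; adjusted over 6 pairs of lines 0.0571, which misses 0.05). GM12878 and K562 differed by 0.02 (exact permutation p = 0.6), and by 0.0034 to 0.0438 when 1 library at a time was left out. From each window's RNA over its own plasmid, K562 stood above GM12878 in the difference from random elements (0.24 and 0.16, not tested). K562 and SK-N-SH differed by 0.04 (exact permutation p = 0.257), and by 0.00996 to 0.0487 when 1 library was left out. GM12878 lay 0.05 above SK-N-SH (exact permutation p = 0.0571; adjusted 0.0857).

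The class difference varied with the enhancer on the plasmid, in size and in sign. Random elements themselves show how active each enhancer was: their summed RNA over plasmid, on a log2 scale per total counts, was lowest beside En02 (−2.06, −2.46, −3.19 and −3.28) and En11 (−1.69, −2.20, −2.70 and −2.89). It was highest beside En21 (0.84, 1.41, 1.36 and 1.75), with En09 (−0.18, −0.01, 0.31 and −0.05) and En19 (0.48, −0.47, −0.95 and −0.76) between. Beside En02, the median window without a motif lay above the median random element by 0.33, 0.63, 0.48 and 0.34 in the 4 lines. Beside En11 the differences were 0.28, 0.66, 0.38 and 0.27, and beside En19 they were 0.22, 0.33, 0.13 and 0.15. Every RNA library of every line was above 0 beside these 3 enhancers.

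Beside En09 and En21 the difference was small or turned. By the summed random counts, En19 was more active than En09 in GM12878 (0.48 and −0.18). Whether enhancer strength had a part in this split was not tested. Beside En09 the difference was −0.01, 0.05, −0.16 and −0.04, and beside En21 it was 0.01, 0.08, −0.12 and −0.07. All 4 libraries of K562 and of SK-N-SH were below 0 beside both of these enhancers, whereas the GM12878 libraries fell on both sides of 0. The enhancers share their libraries, and their difference was not tested. Without En02 the K562 difference over the remaining enhancers fell to 0.0921, without En11 to 0.105, without En09 it was 0.277 and without En21 0.284, each with an exact permutation p of 0.029.

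**Figure D2:**
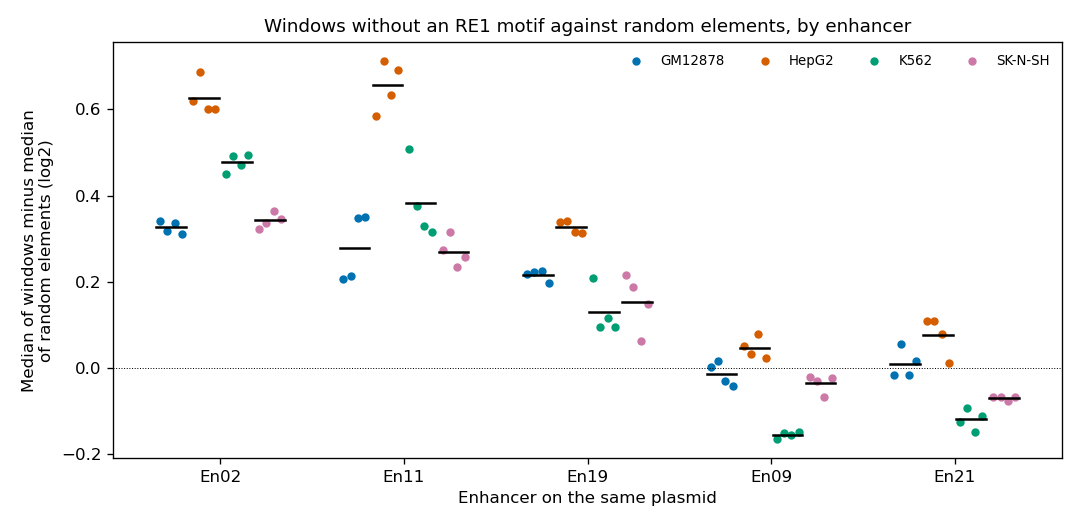
Median of windows without an RE1 motif minus median of random elements (log2, vertical axis) beside each enhancer (horizontal axis), with 1 point per RNA library, 4 per cell line, and a bar at their mean. En02 and En11 give the highest differences (up to 0.66 in HepG2), and En09 and En21 give −0.16 to 0.08.

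Single windows rose and fell in large numbers around random elements. With limma's adjusted p under 0.05, 1602 of 3874 windows (41.4%) were lower and 837 (21.6%) higher than the summed random elements in GM12878, where 51.5% of all 21378 elements tested were lower and 16.2% higher. In HepG2 2024 (52.2%) were lower and 1246 (32.2%) higher, against 63.5% and 24.4% of all elements. In K562 2682 (69.2%) were lower and 931 (24.0%) higher, against 72.2% and 21.8%. In SK-N-SH 2513 (64.9%) were lower and 1021 (26.4%) higher, against 69.6% and 23.1%. Of the random elements themselves, 52.1%, 70.2%, 78.9% and 73.5% were called lower on this scale, so a call of lower here does not set a window apart from a random sequence.

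The split depends on where 0 is placed, and a scale set on the median random pair turned it. On that scale 829 windows were lower and 1171 higher in GM12878 (30.7% and 23.9% of all elements), and 1008 lower and 1839 higher in HepG2 (40.0% and 37.1%). In K562 1481 were lower and 1822 higher (44.2% and 42.7%), and in SK-N-SH 1477 lower and 1840 higher (46.7% and 40.8%). In each line and on both scales the share of windows called higher was above that of all elements, and the share called lower was below it. The scrambled elements of the library (5199) came close to these windows in K562 and SK-N-SH, so the shares are not particular to windows without a motif. Of the scrambled elements 69.0% were lower and 23.8% higher in K562 on the summed scale, and 64.3% and 26.4% in SK-N-SH. Their K562 median was −0.73, and on the median scale 48.2% of them were higher in K562, against 47.0% of the windows.

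The upper tail held more of these windows than of random elements. Above the 95th percentile of random elements lay 421 (10.9%), 470 (12.1%), 345 (8.91%) and 277 (7.15%) of the windows. Below the 5th percentile lay 157 (4.05%), 183 (4.72%), 247 (6.38%) and 237 (6.12%). These shares do not change with the scale, and they are counts of windows, with no test. In K562 and SK-N-SH other classes reached as high. The K562 95th percentile was 1.89 for these windows, 2.06 for windows with a motif and 2.04 for scrambled elements. In SK-N-SH it was 1.87, 1.90 and 1.96. These windows were the highest of the 3 classes in GM12878 (1.51, 1.14 and 1.21) and, narrowly, in HepG2 (2.006, 1.946 and 1.945).

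Beside single enhancers, edgeR's quasi-likelihood test with adjusted p under 0.05 called 4063 of 20485 constructs lower and 4269 higher in GM12878 (25.3% and 17.3% of all 112451 constructs). On the scale of the median random pair these were 2333 and 5742 (15.9% and 24.0%), and with TMM 5349 and 7590 (31.5% and 33.9%). In HepG2 8118 were lower and 6049 higher (49.8% and 24.8%), or 4083 and 8896 on the median scale (29.3% and 36.6%) and 7935 and 8899 with TMM (46.0% and 39.3%). In K562 12697 were lower and 5346 higher (64.6% and 25.5%), or 6860 and 8908 on the median scale (38.9% and 40.9%) and 10213 and 8537 with TMM (52.3% and 40.3%). In SK-N-SH 11877 were lower and 5535 higher (62.7% and 25.3%), or 6732 and 8913 on the median scale (40.7% and 39.4%) and 9955 and 8848 with TMM (51.8% and 41.0%). TMM scales over all constructs, so it leaves the enhancers' own levels in the values. Depth and barcodes moved weakly with activity: across windows the log2 activity correlated at 0.16 to 0.26 with log2 barcode number and at 0.13 to 0.23 with log2 plasmid count (Pearson's r, 3874 windows, a description), and their part in the calls was not tested.

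A window's value was not the same beside every enhancer. The median window ranged over 1.30, 1.43, 1.87 and 1.38 log2 units between its highest and lowest enhancer. The reference shifted as well: in K562 the median random element lay at −1.83 beside En02 and at −0.42 beside En09. This range therefore includes shifts of the reference and noise, and none was taken for random elements. Values beside the weak enhancers En02 and En11 went together across windows (r = 0.62, 0.87, 0.89 and 0.89), as did those beside En09 and En21 (r = 0.81, 0.84, 0.89 and 0.88). Those beside En02 and En21 went together less closely (r = 0.45, 0.56, 0.46 and 0.52). These correlations are across windows that share libraries, and describe this pool.

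More of the windows without a motif differed between cell lines than of windows with a motif or random elements. The F test of limma over the 16 RNA libraries called 3165 of 3874 (81.7%), against 74.5% of all elements, 74.9% of windows with a motif and 62.8% of random elements. Where the test called a window, its highest and lowest line lay over 2 log2 units apart for 707 windows (18.2%), compared with 8.15% of windows with a motif and 2.08% of random elements. The noncanonical windows were close, with 80.5% called, 16.9% over 2 log2 units and a higher median range between lines (1.32, against 1.13), and 87.2% of the positive controls were called, so a difference between lines is not particular to these windows. Across windows the lines correlated at 0.52 (GM12878 and HepG2) to 0.80 (K562 and SK-N-SH). Windows with a motif reached 0.83 to 0.92 and random elements 0.79 to 0.91 over the same pairs of lines. RNA libraries of 1 line correlated on average at 0.78, 0.92 and 0.98 in GM12878, HepG2 and K562 for windows without a motif and at 0.77, 0.93 and 0.98 for windows with one. For random elements these means were 0.67, 0.87 and 0.97. These classes were not compared by a test.

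**Figure D3:**
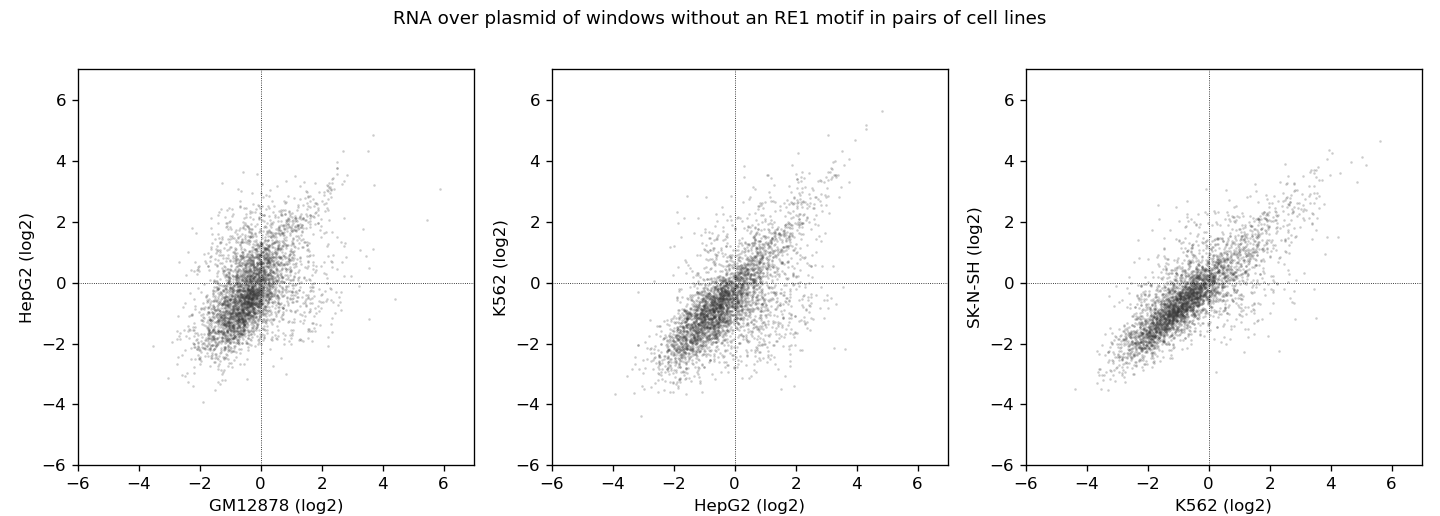
Activity (log2 RNA over plasmid against summed random elements) of the 3874 windows without an RE1 motif in 3 pairs of cell lines, with 1 point per window. The cloud is widest for GM12878 and HepG2 (r = 0.52) and narrowest for K562 and SK-N-SH (r = 0.80), and its upper tail holds windows high in both lines of a pair.

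Of the 3874 windows, 393 (10.1%) were called higher in all 4 lines and 1047 (27.0%) lower in all 4. Random elements were called so in 8.04% and 46.3%. On the scale of the median random pair, 766 windows (19.8%) were higher in all 4 and 390 (10.1%) lower in all 4, against 15.7% and 19.1% of random elements. Windows called higher in at least 1 line and lower in at least 1 other numbered 1088 (28.1%), against 7.91% of random elements. On the scale of the median random pair they numbered 853 (22%), against 7.21%. Other classes, and all elements together, were not counted in this way. Lines were tested in pairs on RNA alone. GM12878 differed from HepG2 in 60.4% of the windows (1051 higher and 1288 lower in GM12878; 54.6% of all elements), from K562 in 64.0% (1667 higher and 812 lower in GM12878; 59.8% of all) and from SK-N-SH in 55.8% (1315 and 847; 53.3% of all). HepG2 differed from K562 in 52.8% (1513 higher and 534 lower in HepG2; 40.9% of all) and from SK-N-SH in 45.6% (1134 and 632; 35.1% of all). K562 and SK-N-SH differed in 43.0% (624 and 1040; 33.3% of all), the fewest of the 6 pairs. Over all 21378 elements, GM12878 was higher in 6576 and lower in 5096 against HepG2, the other way from these windows. It was higher in 8854 and lower in 3935 against K562, and 7275 and 4115 against SK-N-SH. HepG2 was higher in 5910 and lower in 2829 against K562, and 4537 and 2976 against SK-N-SH. For K562 against SK-N-SH the counts were 2929 and 4196. Each line was scaled on its own summed random counts, so the directions move with that scale. The spread of the difference between lines over windows was 0.80 to 1.08 (SD), and 0.45 to 0.71 over random elements.

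Most of the highest windows were active in every line. The window at chr5:138609722-138609922 was the highest of the named windows in HepG2, K562 and SK-N-SH. Its RNA libraries stood at 3.70, 3.68, 3.63 and 3.73 in GM12878 and at 4.86, 4.797, 4.89 and 4.76 in HepG2. K562 libraries stood at 5.86, 5.59, 5.51 and 5.49, and SK-N-SH libraries at 4.76, 4.73, 4.56 and 4.54. No library was near 0, and K562 lay above the other lines in all 4 libraries. In K562 the mean was 5.61 ± 0.08 (SE; limma, adjusted p = 8.4e-16), with 7.45 beside En02, 6.96 beside En11, 5.67 beside En19, 4.24 beside En09 and 3.72 beside En21, which follows the order of the enhancers from weak to strong. The window at chr5:90576361-90576561 had the same pattern, at 3.51 ± 0.11, 4.33 ± 0.05, 5.17 ± 0.06 and 3.84 ± 0.05 (SE), highest in K562. The window at chrX:118603062-118603262 stood at 2.52, 3.96, 4.68 and 3.95, again highest in K562.

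Others of the highest windows had another order of lines. The window at chr17:40706740-40706940 stood at 2.52, 3.75, 4.06 and 4.26 and was highest in SK-N-SH. The window at chr16:2653253-2653453 stood at 2.67, 3.24, 3.96 and 4.35, likewise. Of the 3 named windows on chromosome 19, the window at chr19:46386133-46386333 was highest in HepG2 (3.76, against 2.52, 3.30 and 2.12 in the other lines). The window at chr19:49588622-49588822 was highest in SK-N-SH (4.07), and the window at chr19:5828227-5828427 in K562 (4.33). Each of these 5 windows was above 0 in all 4 lines with a limma adjusted p under 0.05.

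In GM12878 the highest window lay at chr6:26104046-26104246, with libraries at 6.0, 5.56, 5.88 and 6.06 and a mean of 5.87 ± 0.11 (SE; limma, adjusted p = 4.9e-11). It also stood at 3.07, 4.85 and 3.31 in the other lines, and the GM12878 libraries overlapped no other line. The window at chr21:42798043-42798243 had GM12878 libraries at 5.40, 5.39, 5.58 and 5.46. The other lines stood at 2.05, 2.50 and 3.90. Beside En02 this window gave the largest count of the named constructs in GM12878, with 13143, 11833, 15038 and 11794 RNA counts for 420, 197, 355 and 242 plasmid counts. The window at chr18:36520870-36521070 stood at 3.73, 3.19, 3.47 and 3.69, a narrower range. Its lines still differed (F test of limma, adjusted p = 2.2e-05), and its HepG2 libraries (3.03 to 3.30) lay below those of GM12878 (3.61 to 3.89).

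Some windows had most of their activity in a single line, and these are the windows with the largest excess over the next highest line. The window at chr3:98275149-98275349 had GM12878 libraries at 4.43, 4.17, 4.36 and 4.65. HepG2 libraries lay between −0.79 and −0.22, K562 libraries between −1.86 and −0.85 and SK-N-SH libraries between −0.89 and −0.41. Its excess over HepG2, the next line, was 4.96 ± 0.21 (SE; limma, adjusted p = 6.8e-14), and in the other lines it stood between the 39.0th and 61.4th percentile of random elements. The window at chr11:35148098-35148298 stood at 3.57 in GM12878 and at −0.75, −1.21 and −1.85 in SK-N-SH, HepG2 and K562. The window at chr2:213880583-213880783 stood at 2.34 in GM12878 and at −1.62 in both HepG2 and SK-N-SH, with −2.27 in K562.

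In HepG2 the window at chr4:155519279-155519479 had libraries at 3.47, 2.95, 3.27 and 3.32. The means of the other lines were −1.28, −2.14 and −1.97, an excess of 4.53 ± 0.28 over GM12878 (SE; limma, adjusted p = 1.6e-11). Beside En02 it reached 5.07 and beside En21 1.18. The window at chr10:60833391-60833591 stood at 3.62 in HepG2 and at −0.58, −1.93 and −2.17 in GM12878, SK-N-SH and K562. The window at chr1:121263953-121264153 stood at 2.21 in HepG2 and at −1.40, −2.21 and −2.21 in GM12878, K562 and SK-N-SH.

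In K562 the window at chr12:92798804-92799004 had libraries at 2.41, 2.26, 2.29 and 2.26, against means of −1.56, −1.88 and −2.26 for the other lines. Its excess over GM12878 was 3.86 ± 0.23 (SE; limma, adjusted p = 8.2e-12). In K562 it stood at 4.42 beside En02 and 4.17 beside En11, and at −0.13 beside En09 and 0.21 beside En21. The window at chr1:71141599-71141799 stood at 3.46 in K562 and at 0.46, 0.32 and −0.22 in GM12878, HepG2 and SK-N-SH. It was called higher in 3 lines, and its excess in K562 over GM12878 was 3.01 ± 0.12 (SE; limma, adjusted p = 1.6e-14).

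SK-N-SH had the smallest of these excesses. The window at chr18:67711895-67712095 had SK-N-SH libraries at 1.97, 1.97, 1.46 and 1.54, above the libraries of the other lines, which ran from −1.70 to −0.38. Its excess over HepG2 was 2.62 ± 0.27 (SE; limma, adjusted p = 1.1e-07). The window at chr1:115732884-115733084 stood at 2.31 in SK-N-SH, with −0.96, −1.32 and −0.12 in the other lines. The window at chr11:106269841-106270041 stood at 1.72 in SK-N-SH and at −0.61, −0.89 and −1.84 in GM12878, HepG2 and K562. All 3 were highest beside En02, En11 and En19 in SK-N-SH, with 0.01, 0.26 and −0.33 beside En21.

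**Figure D4:**
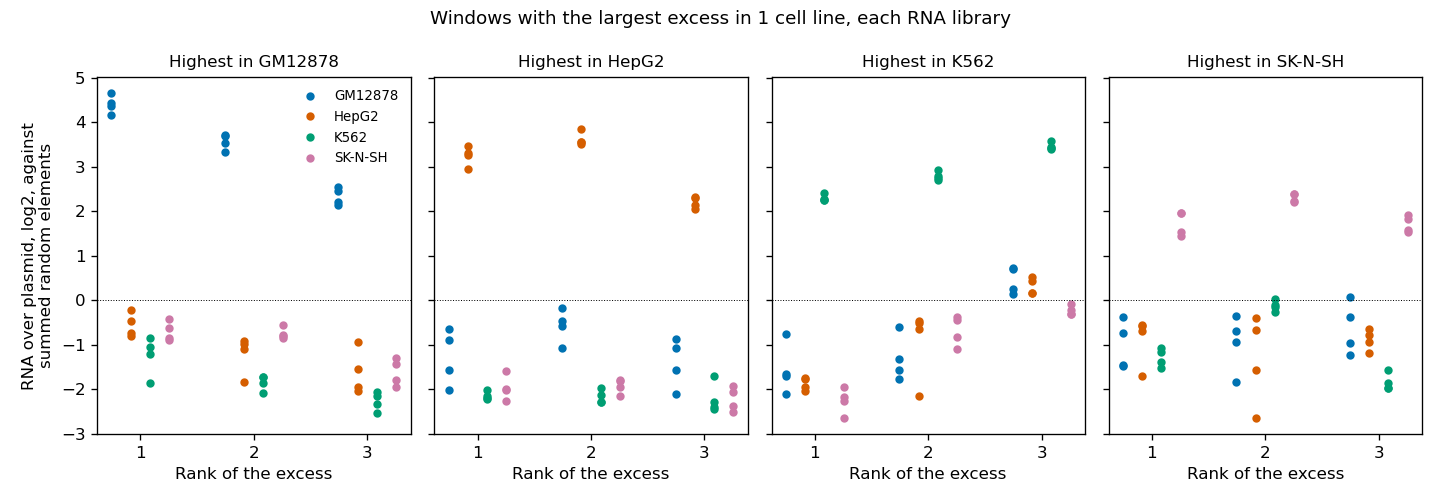
Activity (log2 RNA over plasmid against summed random elements) of the 3 windows with the largest excess in each cell line, ranked by that excess, with 1 point per RNA library and a colour per line. The libraries of the highest line lie apart from those of the other 3 lines for all 12 windows, from an excess of 4.96 (GM12878, rank 1) to 2.33 (SK-N-SH, rank 3).

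The lowest windows were low in all lines but to unequal degrees. The window at chr16:27933859-27934059 was among the 5 lowest in HepG2, K562 and SK-N-SH. Its libraries stood at −3.51, −3.52, −3.41 and −5.27 in HepG2. K562 libraries stood at −3.30, −4.04, −3.74 and −3.56, and SK-N-SH libraries at −2.99, −3.02, −3.87 and −3.28. In GM12878 they stood at −1.88, −1.76, −2.03 and −1.92, above every library of the other lines. The K562 mean was −3.66 ± 0.16 (SE; limma, adjusted p = 4.5e-11), and no random element was as low in K562, HepG2 or SK-N-SH. This window was picked from 3874, against only 721 random elements. Windows with a motif went lower, to −5.36 in K562 and −6.67 in HepG2. The window at chr18:5972987-5973187 differed least between lines by the F test among the windows given here, at −3.02, −3.12, −2.83 and −3.03 (F test of limma, adjusted p = 0.91).

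Other low windows were lower in some lines than in others. The window at chr15:31277583-31277783 stood at −1.41, −1.60, −3.67 and −2.24, lowest in K562. The window at chr20:17836873-17837073 stood at −1.27, −1.93, −3.31 and −3.51, and its K562 and SK-N-SH libraries overlapped. In GM12878 the lowest named window, at chr14:71803345-71803545, had libraries at −3.52, −4.03, −4.39 and −2.12. Its HepG2 libraries ran from −3.69 to −1.30, and the F test over lines missed the threshold (limma, adjusted p = 0.059). The SE of the 20 lowest named values in their own line was 0.10 to 0.63, against 0.04 to 0.11 for the 20 highest.

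The lowest single constructs were at the counting limit. Beside En02 the window at chr2:77282194-77282394 had 0 RNA counts in all 4 HepG2 libraries and 980 plasmid counts in all, which makes it at least 88.4-fold lower than the summed random elements (at 3 counts over the group). Beside En11 the window at chr18:44786810-44787010 had 0 HepG2 RNA counts for 458 plasmid counts, at least 49.5-fold lower. Beside En11 the window at chr11:109512351-109512551 had 1 HepG2 RNA count for 695 plasmid counts, a log2 ratio of −7.82 (95% exact Poisson interval −13.12 to −5.34). Such bounds and intervals cover counting error only, since PCR reads without molecular identifiers are not independent molecules. In K562 the 3 lowest constructs all lay beside En19, and the window at chr5:90522047-90522247 had 21, 26, 17 and 19 RNA counts there for 1143, 717, 1217 and 791 plasmid counts (−5.25 ± 0.11, SE; edgeR, adjusted p = 2.5e-22).

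Few of the windows overlapped the RE1 windows or each other. The distances expected under random placement were not computed. Of the 4334 windows, 1 overlapped a window with a motif and 8 overlapped another window of their own class, whereas 2024 of 8340 windows with a motif overlapped another of theirs. The median distance between starts was 83261 bp to the nearest window with a motif and 121797 bp to the nearest of their own class. Chromosome 6 held 7.68% of the windows and 5.04% of windows with a motif, and chromosome 2 held 9.69% and 7.52%. Chromosome 19 held 2.77% and 5.56%. Activity by distance to a motif window, on the scale of the median random pair, had medians of 0.09, 0.27, 0.32 and 0.26 in the 4 lines for the 101 windows under 1 kb and of −0.06, 0.18, 0.16 and 0.19 for the 399 from 1 to 10 kb. They were −0.03, 0.29, 0.17 and 0.15 for the 1627 from 10 to 100 kb and −0.09, 0.13, 0.01 and 0.06 for the 1747 at 100 kb or more. Outside SK-N-SH the 4 groups had no steady order with distance, and they were not tested.

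Windows also gathered in places. The 1 Mb bin with the most was bin 65 of chromosome 11, with 15 windows, whose median on that scale was 0.07, 0.10, 0.18 and 0.39 in the 4 lines. Bin 26 of chromosome 6, which holds the highest GM12878 window, had 10 windows with medians of 0.94, 0.87, 0.87 and 0.92, the highest in all 4 lines among the 6 fullest bins. Those bins were picked by their number of windows, and the values are a description.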

How the data were processed

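Barcode counts of the genome-wide library were used in 4 cell lines. Per the file headers, the deposited tables hold raw counts per construct, summed over its barcodes, for 4 RNA and 4 plasmid libraries; the plasmid columns are the same in all 4 tables. The aligner and genome build are not given in the sources used here. Each table had 139325 lines, of which 18698 repeated a native line and 3796 held no counts, which left 116831 constructs. The authors' deposited log2 fold change was used as a check only, and correlated at 0.99 to 1.00 with the values computed here, within enhancer.

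RNA was set against plasmid for constructs whose plasmid mean was 20 or more, by edgeR's quasi-likelihood test (version 4.0.16, R 4.3.3), with the summed random counts beside the same enhancer as offset. Windows measured beside all 5 enhancers were tested with limma 3.58.1 on mean log2(count + 0.5) values, and lines with its F test and pairwise contrasts on RNA. Adjustment was by Benjamini-Hochberg over all elements, with a threshold of 0.05. Class medians were tested with two-sided exact permutation tests over libraries. DESeq2 1.42.0 was an alternative. Both fits were tested on simulated data. Other steps used pandas 2.3.3, numpy 2.4.6, pysam 0.24.0, matplotlib 3.10.9 and scipy 1.17.1 under Python 3.11.15.

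The members and lists were chosen with earlier results of these data known. Named windows had a plasmid mean of at least 100: per line, the 5 highest and 5 lowest past the threshold with the same sign beside all 5 enhancers and in all 4 RNA libraries, the 3 with the largest excess over the next line, and the 3 highest and 3 lowest constructs; not all are described. The chromosome bins were picked by their number of windows. Motif searches in the windows were not run, since no genome of the names' build was used here.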

Additional observations from a re-analysis of the deposited data

Results flagged for a closer look

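In 4 of 52 groups of 4 libraries examined, the farthest library stood apart from the other 3 beyond the 95% limit of Dixon's test, which chance gives in about 1 group in 20. They were a GM12878 library at −4.95 for the window at chr17:56709005-56709205, a HepG2 library at −5.27 for the window at chr16:27933859-27934059, a K562 library at 4.86 for the window at chrX:118603062-118603262 and a K562 library at −4.75 for the window at chr11:109295720-109295920. In 3 of these the value is a low extreme of a low window. The groups share libraries, and both K562 values come from replicate 1. That library also gave the highest K562 class difference from random elements (0.263, against 0.146 to 0.171). It was not the highest for every window: at chr6:26104046-26104246 it stood at 4.70 in K562, below 4.82 to 4.95.

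The class difference from random elements was positive in every library beside En02, En11 and En19, and negative in every library of 2 lines beside En09 (K562, −0.156; SK-N-SH, −0.036) and En21 (K562, −0.12; SK-N-SH, −0.07). The difference between enhancers was not tested. Windows higher in 1 line and lower in another numbered 1088 (28.1%, against 7.91% of random elements). On the scale of the median random pair they numbered 853 (22%, against 7.21%). The share over all elements was not taken.

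Windows whose lines differed by limma's contrast on RNA, with the largest excess over the next line, were 3 per line. In GM12878 the excesses were 4.96 (chr3:98275149-98275349), 4.31 (chr11:35148098-35148298) and 3.96 (chr2:213880583-213880783). In HepG2 they were 4.53 (chr4:155519279-155519479), 4.199 (chr10:60833391-60833591) and 3.61 (chr1:121263953-121264153). In K562 they were 3.86 (chr12:92798804-92799004), 3.48 (the window of rank 2) and 3.01 (chr1:71141599-71141799). In SK-N-SH they were 2.62 (chr18:67711895-67712095), 2.43 (chr1:115732884-115733084) and 2.33 (chr11:106269841-106270041).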

How the results depend on the processing

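The place of 0 changed the counts most. On the scale of the median random pair, windows lower were 829, 1008, 1481 and 1477 (lines in the order above), and windows higher were 1822 in K562 and 1840 in SK-N-SH. Constructs lower were 2333, 4083, 6860 and 6732, and constructs higher were 8908 in K562 and 8913 in SK-N-SH. With TMM, constructs higher were 7590 in GM12878, 8537 in K562 and 8848 in SK-N-SH. A scale set on random and negative control elements, other plasmid minimums, a pseudocount of 2, fewer enhancers, DESeq2 and the noncanonical windows kept in each left the counts within 1.5 times. The 40 window values named as highest or lowest kept their direction and side of the threshold in all 873 alternatives run on them. They had been picked for the same sign beside all 5 enhancers and in all 4 RNA libraries, so leaving 1 out could hardly turn them. Keeping the noncanonical windows in reused the same fit. Windows that lost a construct at a plasmid minimum of 50, the lowest named GM12878 windows among them, were not run there. Over the mean of the enhancers, the class differences from windows with a motif and from noncanonical windows also kept their direction and side. Beside En21 alone the difference from windows with a motif was −0.085 in K562 and −0.015 in SK-N-SH. With negative controls in place of random elements as reference, the class difference was larger, at 0.787, 1.019, 0.750 and 0.604 against 0.202, 0.409, 0.185 and 0.149. Taken from each window's RNA over its own plasmid, an alternative chosen after seeing the data, the difference from random elements was 0.162 in GM12878, 0.244 in K562 and 0.182 in SK-N-SH.

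With means in place of medians, the differences between lines were −0.204 (GM12878 minus HepG2), 0.0433 (GM12878 minus SK-N-SH), 0.17 (HepG2 minus K562), 0.247 (HepG2 minus SK-N-SH) and 0.0772 (K562 minus SK-N-SH), each with an adjusted exact permutation p of 0.034, and GM12878 minus K562 turned to −0.0339; the cause was not tested. Leaving out 1 library at a time gave −0.228 to −0.187 for GM12878 minus HepG2 and 0.0394 to 0.0678 for GM12878 minus SK-N-SH. Without GM12878 replicate 4 both passed the threshold. Leaving out 1 library gave 3060 to 3226 windows that differed between lines, and moved constructs lower in GM12878 between 3055 and 4641.

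RNA and plasmid columns share replicate numbers, but same-numbered columns did not deviate together (correlations of −0.02 to 0.103). With the replicate block, GM12878 had 3464 constructs lower and 3748 higher, and 1567 windows lower and 804 higher. Depth limits the lowest constructs, and 124 constructs had no adjusted p from DESeq2 in GM12878.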
